A study of Mus musculus with 12 samples.

Results

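The annexins and the S100 proteins are calcium-binding proteins that meet at membranes, and 9 of their genes were followed here in nuclei taken from mouse spinal cord after injury. The members were chosen by name: Anxa1, Anxa2, Anxa3, Anxa4, Anxa5, S100a4, S100a6, S100a10 and S100a11, which are 9 of the 49585 genes in the count table. S100a4 had too few counts to be tested, so 8 of the 9 entered the tests. The 12 libraries came from the spinal cord of C57BL/6 mice, 3 after sham surgery and 3 each at 3, 7 and 14 days after spinal cord injury. The sham libraries carry the time label of 7 days. Each library pooled cord from 3 animals, cut 5 mm to either side of the lesion, and held nuclei captured with an antibody against GFP and labelled as microglial. The sources used here do not give the gene that drives GFP, the age or sex of the mice, or any further allele. Since each library is a pool, the p-values below measure the spread between pools.

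Annexins dock to negatively charged lipids of a membrane when calcium rises, and they take part in membrane repair, vesicle traffic and the handling of dying cells. S100 proteins are small calcium sensors that pair up and bind other proteins. The families join in named complexes: S100A10 binds the tail of annexin A2 and brings plasminogen activation to the cell surface, and S100A11 binds the tail of annexin A1. Microglia and the macrophages that enter an injured cord clear myelin and dead cells, and annexins are known in them as proteins of phagocytosis and of the end of inflammation.

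The promoters of 4 members are shown because Anxa2, Anxa4 and Anxa5 were higher at several times and because Anxa2 and S100a11 alone among the members with a promoter window held a match to the AP-1 pattern, the DNA element bound by Fos and Jun proteins. RefSeq promoter windows on GRCm38.p6 were found for 7 of the 9 members (all but Anxa3 and S100a10), and the 200 bases before each start were searched on both strands. The AP-1 pattern searched was TGANTCA, which reads the same on either strand, and it occurred in 5.48% of 32817 promoters of that length. The stretches lie at chr9:69453483-69453619 (+ strand) for Anxa2, chr3:93520296-93520487 (+ strand) for S100a11, chr6:86793585-86793784 (- strand) for Anxa4 and chr3:36475895-36476087 (- strand) for Anxa5. They are written 5′ to 3′ and end where the annotated gene begins, and capitals mark the AP-1 matches.
Anxa2: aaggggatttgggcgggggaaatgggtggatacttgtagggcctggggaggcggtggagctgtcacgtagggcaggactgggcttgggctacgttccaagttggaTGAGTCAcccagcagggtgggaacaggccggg
S100a11: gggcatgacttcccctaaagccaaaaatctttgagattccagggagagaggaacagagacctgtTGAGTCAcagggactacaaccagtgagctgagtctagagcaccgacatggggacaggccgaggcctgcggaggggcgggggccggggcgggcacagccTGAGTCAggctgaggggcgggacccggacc
Anxa4: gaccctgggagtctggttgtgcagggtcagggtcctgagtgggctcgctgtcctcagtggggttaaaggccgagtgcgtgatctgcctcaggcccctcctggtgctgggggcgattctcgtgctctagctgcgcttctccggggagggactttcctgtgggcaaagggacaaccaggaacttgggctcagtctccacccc
Anxa5: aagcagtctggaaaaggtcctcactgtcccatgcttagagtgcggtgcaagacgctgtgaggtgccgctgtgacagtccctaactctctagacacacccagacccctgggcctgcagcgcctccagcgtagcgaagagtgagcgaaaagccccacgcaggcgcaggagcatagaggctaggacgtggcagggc
The match in Anxa2 began at base -95 from the RefSeq start, and those in S100a11 began at -136 and -38. No AP-1 match overlapped a match to another pattern searched. The GC box GGGCGG, held by 31% of promoters, was also found in Anxa2 and S100a11 and in no other member with a window. The TATA box TATAAA, in 9.96% of promoters, was found in Anxa1, Anxa2 and S100a4. The PU.1 pattern GAGGAAGT, in 2.06% of promoters, and the cyclic AMP element TGACGTCA, in 1.47%, matched none of the members' windows. A match is a string of letters, and the libraries hold no measure of binding.

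All 4 S100 members lie on chromosome 3 in 2 neighbourhoods (GRCm38, GENCODE M21). S100a4 (ENSMUSG00000001020, chr3:90603771-90606045) and S100a6 (ENSMUSG00000001025, chr3:90612882-90624181) are neighbours, as are S100a11 (ENSMUSG00000027907, chr3:93520488-93526287) and S100a10 (ENSMUSG00000041959, chr3:93555080-93564643), all on the + strand. Anxa5 (ENSMUSG00000027712, chr3:36448923-36475894) is on the - strand of the same chromosome. The other annexins are dispersed: Anxa1 (ENSMUSG00000024659) at chr19:20373428-20390944 on the - strand, Anxa2 (ENSMUSG00000032231) at chr9:69453620-69491795 on the + strand, Anxa3 (ENSMUSG00000029484) at chr5:96793339-96845966 on the + strand and Anxa4 (ENSMUSG00000029994) at chr6:86736840-86793584 on the - strand. The deposited values are sums over exons: the lengths implied by the RPKM equal the summed exon length of GENCODE M21 for 8 of the 9 members, and Anxa1 was counted over 2608 bases against 2911 in that annotation. Gm42603, a gene model whose type awaits experimental proof in that annotation, lies on the same strand as Anxa3 and overlaps one of its exons (chr5:96798207-96800352), and it held 10312 counts against 33559 for Anxa3. The protein-coding gene Gm42674 (chr3:90601904-90605885) overlaps S100a4 in the same way and held 0 counts. The genes on the opposite strand that overlap exons of Anxa1, Anxa2 and Anxa4 held 26, 114 and 44 counts in all, and the pseudogene S100a11-ps held 0.

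Total counts ranged from 4003480 to 10670804 per library, and log2 expression of libraries of the same group correlated at 0.880 to 0.979. Sham replicate 4 stood apart from the other sham libraries, with correlations of 0.880 and 0.911. Its astrocyte marker sum was 5405 CPM (counts scaled to a common library size with TMM factors) against 699 and 1631, its fibroblast and pericyte sum 556 against 72 and 84, and its endothelial sum 212 against 51 and 47. The 12 microglial markers were all detected, and their sum lay between 3567 and 6927 CPM in every library. It was 5531 to 6927 in sham, 3567 to 4329 at 3 days, 4788 to 6153 at 7 days and 4071 to 5086 at 14 days. The 12 markers of monocyte-derived macrophages summed to 137 to 193 CPM in sham, 1204 to 1707 at 3 days, 277 to 626 at 7 days and 724 to 845 at 14 days. The 12 endothelial markers summed to 47 to 212, 284 to 727, 54 to 69 and 451 to 461 CPM in the same order, and the 12 fibroblast and pericyte markers to 72 to 556, 324 to 956, 41 to 136 and 597 to 709 CPM. The high end at 3 days was replicate 3 in both lists, with 727 against 284 and 321 CPM for endothelial markers and 956 against 324 and 364 CPM for those of fibroblasts and pericytes. The 12 astrocyte markers summed to 699 to 5405, 1504 to 2382, 1696 to 2103 and 2436 to 2858 CPM in the same group order. The 12 neuronal markers summed to 1764 to 3408, 826 to 972, 951 to 1259 and 1223 to 1777 CPM. The 10 oligodendrocyte markers summed to 932 to 1858, 1025 to 1473, 653 to 986 and 1005 to 1471 CPM. Of all the marker genes, Pmp2 of the Schwann cell list was at 0 in every library. In such bulk samples, fewer nuclei of a type and less RNA per nucleus cannot be told apart.

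Ordered per length, as the authors' RPKM (counts scaled by exon length and library total), Anxa3 was the most abundant member in every group. In sham it stood at 112 ± 35.9 RPKM (SD, n = 3), above the next member, Anxa5, at 9.02 ± 4.91 RPKM. Anxa4 followed at 7.54 ± 1.48, S100a11 at 5.34 ± 6.39 and S100a10 at 2.86 ± 0.561 RPKM. Anxa5, Anxa4, S100a11 and S100a10 overlapped their neighbours in this order, and the gaps after Anxa3 and after S100a10 were free of overlap. Anxa2 was the sixth member in sham, at 1.27 ± 0.323 RPKM, ahead of S100a6 at 0.647 ± 0.348, Anxa1 at 0.618 ± 0.544 and S100a4 at 0.221 ± 0.211 RPKM, which overlapped one another in turn. In the injured groups Anxa2 stood above S100a10 in every case without overlap: 5.77 ± 0.576 against 3.58 ± 0.362 RPKM at 3 days, 3.61 ± 0.604 against 1.72 ± 0.597 at 7 days and 5.66 ± 0.257 against 3.28 ± 0.837 at 14 days. At 14 days Anxa4, at 25.5 ± 2.71 RPKM, was second in the order and overlapped Anxa5, at 22.0 ± 1.05 RPKM.

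**Figure D1:**
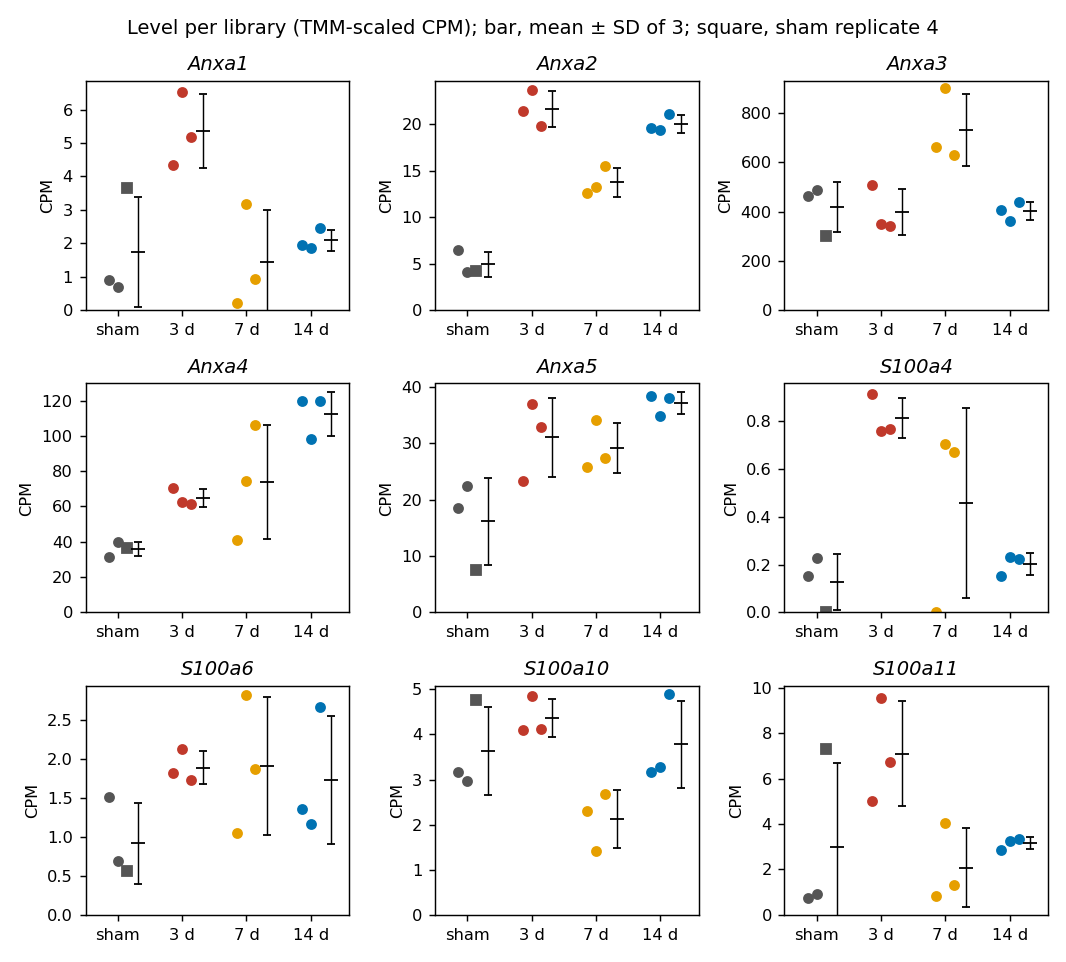
Level of each of the 9 members in each of the 12 libraries, in TMM-scaled CPM, on axes that start at 0 (error bars that would pass below 0 are cut there). Points are libraries, horizontal bars with whiskers are the mean ± SD of 3, and the square is sham replicate 4; the sham libraries of Anxa2 sit between 4.11 and 6.51 CPM, below all 9 injury libraries.

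Anxa2, the annexin of the S100A10 complex, rose after injury at all 3 times. Its sham libraries (replicates 2, 3 and 4) were at 6.51, 4.11 and 4.20 CPM. The injury libraries were at 21.4, 23.7 and 19.8 CPM at 3 days, 12.6, 13.2 and 15.5 at 7 days and 19.6, 19.4 and 21.2 at 14 days. Every injury library lay above every sham library, and the 7-day libraries lay below those of the other injury times. Against sham the log2 fold change was 2.10 ± 0.26 (SE) at 3 days, with a p of 8.63e-05 in the quasi-likelihood test of edgeR, where Benjamini-Hochberg adjustment was made across the tested genes. That test and adjustment give every edgeR adjusted p below, with a threshold of 0.05. At 7 and 14 days it was 1.45 ± 0.26 and 1.99 ± 0.26, with edgeR adjusted p of 0.00438 and 0.000309. The calls at 3 and 14 days held in all 21 alternatives, and the call at 7 days was lost in 1 of them, the fit of the 2 groups alone (1.43, edgeR adjusted p 0.0973). At 7 days the endothelial marker sum, 54 to 69 CPM, was within the sham range of 47 to 212 CPM, while the sums at 3 and 14 days were above it. The sum of monocyte-derived macrophage markers was above its sham range at all 3 times. Of the 9 tested genes of that list 6, 2 and 2 were called higher at 3, 7 and 14 days, beside 10.9%, 4.61% and 5.02% of all genes. The numbers called lower were 0, 0 and 1, beside 9.17%, 4.67% and 4.79% of all genes. The part of either list in the level of Anxa2 was not tested. The lower level at 7 days than at 3 days missed the threshold (log2 fold change -0.65 ± 0.24, edgeR adjusted p 0.0816). It passed with DESeq2 (-0.66, DESeq2 adjusted p 0.0387). It also passed without sham replicate 2 (-0.63, edgeR adjusted p 0.0485) or sham replicate 4 (-0.62, edgeR adjusted p 0.0453).

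S100a10 encodes the partner of annexin A2, an S100 protein that stays in its open form without calcium. Its sham libraries were at 3.18, 2.97 and 4.76 CPM, those at 3 days at 4.1, 4.85 and 4.13, those at 7 days at 2.30, 1.41 and 2.67 and those at 14 days at 3.16, 3.27 and 4.90 CPM. The 7-day libraries were the lowest 3 of the 12, and the other groups overlapped. None of its comparisons passed the threshold. Against sham the log2 fold change was 0.28 ± 0.40 at 3 days, -0.74 ± 0.42 at 7 days and 0.06 ± 0.41 at 14 days, with edgeR adjusted p of 0.667, 0.275 and 0.942. The 95% intervals of those 3 values were -0.57 to 1.13, -1.64 to 0.15 and -0.81 to 0.93, at 8 to 43 counts per library, and the change of Anxa2 at the same time lay above each of them. The lower level at 7 than at 3 days also missed the threshold (-1.02 ± 0.41, edgeR adjusted p 0.105), and it passed with limma at a pseudocount of 1 (-0.77, adjusted p 0.0482). The difference between the changes of Anxa2 and S100a10 was not tested.

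Anxa1 encodes annexin A1, the glucocorticoid-induced ligand of formyl peptide receptors, and S100a11 encodes the S100 protein that binds it. Anxa1 was at 0.91, 0.69 and 3.64 CPM in sham, 4.33, 6.52 and 5.19 at 3 days, 0.21, 3.17 and 0.94 at 7 days and 1.96, 1.87 and 2.45 at 14 days. S100a11 was at 0.76, 0.91 and 7.28 CPM in sham, 5.01, 9.56 and 6.73 at 3 days, 0.84, 4.05 and 1.34 at 7 days and 2.86, 3.27 and 3.34 at 14 days. In both genes the 3-day libraries were high, sham replicate 4 was far above the other sham libraries, and 7-day replicate 3 was above the other 7-day libraries. Neither gene passed the threshold against sham at any time. At 3 days the log2 fold change was 1.70 ± 0.69 for Anxa1 (edgeR adjusted p 0.0966) and 1.35 ± 0.71 for S100a11 (edgeR adjusted p 0.191). Without sham replicate 4 both passed, at 2.67 for Anxa1 (edgeR adjusted p 0.0168) and 3.05 for S100a11 (edgeR adjusted p 0.0037). Anxa1 at 3 days also passed with no filter on low counts (1.74, edgeR adjusted p 0.0315) and with limma at a pseudocount of 1 (0.95, adjusted p 0.0284). Sham replicate 4 also set the sign at 7 days, where Anxa1 went from -0.18 to 0.81 and S100a11 from -0.42 to 1.30 when it was left out, with edgeR adjusted p of 0.587 and 0.280. At 14 days the values without it were 1.33 for Anxa1 and 1.89 for S100a11 against 0.34 and 0.18 with it, and neither passed (edgeR adjusted p 0.274 and 0.0708).

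From 3 to 7 days both genes were lower without passing the threshold. The log2 fold change was -1.87 ± 0.68 for Anxa1 (edgeR adjusted p 0.0782) and -1.77 ± 0.70 for S100a11 (edgeR adjusted p 0.104). With all 12 libraries Anxa1 passed in DESeq2 (-1.90, DESeq2 adjusted p 0.0435) and with no filter on low counts (-1.86, edgeR adjusted p 0.0190). Limma at a pseudocount of 1 (-1.04, limma adjusted p 0.0297) and the 2 groups alone (-1.89, edgeR adjusted p 0.0489) passed too. It also passed without sham replicate 4 (-1.85, edgeR adjusted p 0.0290) and without 7-day replicate 3 (-3.04, edgeR adjusted p 0.0339). S100a11 passed with no filter (-1.76, edgeR adjusted p 0.0104) and in the 2 groups alone (-1.78, edgeR adjusted p 0.0331). It also passed without sham replicate 4 (-1.75, edgeR adjusted p 0.0171). The part of the high fibroblast, endothelial and astrocyte marker sums of sham replicate 4 in these values was not tested. The depth was low, with 1 to 54 counts per library for Anxa1 and 4 to 70 for S100a11.

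**Figure D2:**
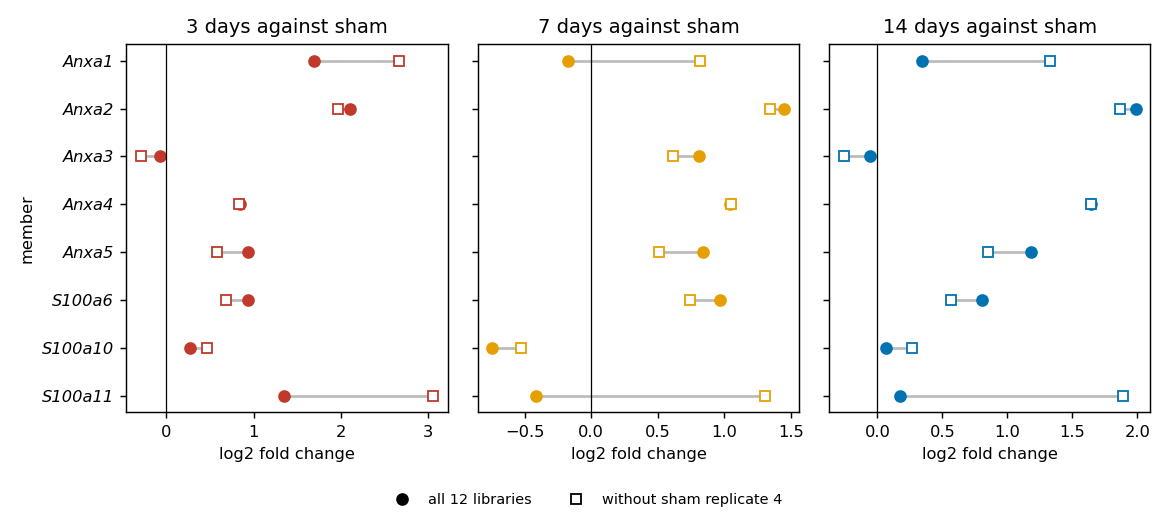
Log2 fold change of the 8 tested members against sham at 3, 7 and 14 days, with all 12 libraries (filled circles) and without sham replicate 4 (open squares). The values of S100a11 move from 1.35 to 3.05 at 3 days, from -0.42 to 1.30 at 7 days and from 0.18 to 1.89 at 14 days, while that of Anxa4 at 14 days is 1.65 in both.

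Across the 12 libraries Anxa1 and S100a11 followed each other, and Anxa2 and S100a10 had a far lower Pearson r. The Pearson r of log2 CPM was 0.95 for Anxa1 and S100a11, with a Spearman rho of 0.95, and 0.96 without the libraries farthest from the median of Anxa1 (7-day replicate 1 and 3-day replicate 2). After subtraction of the group means it was 0.92. The 5 libraries highest in Anxa1 were also the 5 highest in S100a11: the 3 libraries at 3 days, sham replicate 4 and 7-day replicate 3. For Anxa2 and S100a10 r was 0.13 and rho 0.53, r was 0.51 without sham replicates 3 and 4, and r was 0.10 after subtraction of the group means. Of the 5 libraries highest in Anxa2, 4 were also among the 5 highest in S100a10. These values describe 12 libraries of 4 groups that share their processing, and the difference between the pairs was not tested. Among the other pairs of members, Anxa3 and S100a10 had the most negative r, at -0.86.

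**Figure D3:**
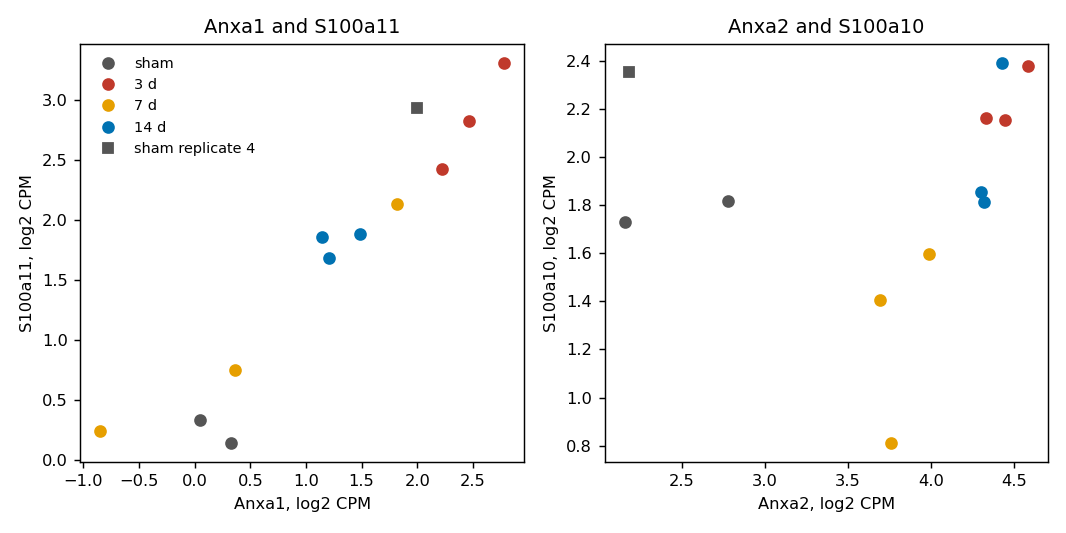
Log2 CPM of Anxa1 against S100a11 (left) and of Anxa2 against S100a10 (right), with 1 point per library coloured by group and a square for sham replicate 4. The left panel runs along a line (r 0.95), and in the right panel the sham points lie to the left of the injury points over much the same heights (r 0.13).

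Anxa4 and Anxa5 encode annexins that assemble on membranes; annexin A5 binds exposed phosphatidylserine and is the usual probe for dying cells. Anxa4 rose at all 3 times. It was at 31.6, 39.8 and 36.7 CPM in sham, 70.4, 62.3 and 61.7 at 3 days, 41.1, 74.3 and 106 at 7 days and 119.8, 98.2 and 119.6 at 14 days. Each injury library lay above each sham library, and the 7-day libraries were spread over the range of the other groups. The log2 fold change against sham was 0.85 ± 0.26 at 3 days, 1.04 ± 0.26 at 7 days and 1.65 ± 0.27 at 14 days, with edgeR adjusted p of 0.0333, 0.0242 and 0.00151. The call at 14 days held in all 21 alternatives. The call at 3 days held in 10 of 21: it ended without sham replicate 2 or 3, any 3-day replicate or any 14-day replicate (0.73 to 0.90, edgeR adjusted p 0.0526 to 0.105), with limma (adjusted p 0.0635 and 0.0639), and without both sham replicate 4 and 3-day replicate 3 (0.90, edgeR adjusted p 0.0750). The call at 7 days was lost without 7-day replicate 3 (1.03, edgeR adjusted p 0.0513), without 7-day replicate 4 (0.65, edgeR adjusted p 0.128), in the fit of the 2 groups alone (1.00, edgeR adjusted p 0.156) and with limma (adjusted p 0.0824 and 0.0833).

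Anxa4 at 14 days lay above all 3-day libraries, and the difference missed the threshold (0.80 ± 0.26, edgeR adjusted p 0.0731). It passed in 6 of 21 alternatives. These included DESeq2 (0.82, DESeq2 adjusted p 0.0339) and no filter on low counts (0.80, edgeR adjusted p 0.0111). The fit of the 2 groups alone passed too (0.81, edgeR adjusted p 0.000389). The rest were without sham replicate 4 (0.81, edgeR adjusted p 0.0375), 7-day replicate 1 (0.80, edgeR adjusted p 0.0199) or 7-day replicate 4 (0.83, edgeR adjusted p 0.0351). Those libraries change the spread shared by the groups and are not among the libraries compared.

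Anxa5 was called higher at 3 and 14 days. It was at 18.5, 22.4 and 7.56 CPM in sham, 23.2, 36.9 and 33.0 at 3 days, 25.8, 34.2 and 27.4 at 7 days and 38.3, 34.8 and 38.1 at 14 days. No injury library fell into the sham range, and sham replicate 4 was the lowest of the 12. The log2 fold change was 0.93 ± 0.31 at 3 days, 0.84 ± 0.31 at 7 days and 1.18 ± 0.31 at 14 days, with edgeR adjusted p of 0.0432, 0.0982 and 0.0246. The direct test of 7 against 3 days gave -0.10 (edgeR adjusted p 0.856), so no difference between those times was called. The call at 3 days held in 6 of 21 alternatives and ended without sham replicate 2 or 4, 3-day replicate 2 or 3, or any 7-day or 14-day replicate (0.59 to 1.01, edgeR adjusted p 0.0517 to 0.159). It also ended with the replicate block (0.87, edgeR adjusted p 0.0525), in the 2 groups alone (0.91, edgeR adjusted p 0.152) and with limma (limma adjusted p 0.0514 and 0.0587). Without both sham replicate 4 and 3-day replicate 3 it ended too (0.57, edgeR adjusted p 0.152). Without sham replicate 4 the values were 0.59 at 3 days, 0.51 at 7 days and 0.85 at 14 days, with edgeR adjusted p of 0.0803, 0.205 and 0.0222. The call at 14 days was lost when 14-day replicate 1, 2 or 3 was left out (edgeR adjusted p 0.0806, 0.0590 and 0.0812). It was also lost in the fit of the 2 groups alone (1.19, edgeR adjusted p 0.0954).

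Anxa3, an annexin known in rodent brain and spinal cord as a microglial one, rose at 7 days. It was at 464, 489 and 300.4 CPM in sham, 508, 351 and 339 at 3 days, 664, 901 and 629 at 7 days and 407, 363 and 437 at 14 days. The 7-day libraries were above the other 9, which overlapped one another. Against sham the log2 fold change was -0.07 ± 0.21 at 3 days, 0.81 ± 0.21 at 7 days and -0.05 ± 0.21 at 14 days, with edgeR adjusted p of 0.852, 0.0300 and 0.903. The direct test of 7 against 3 days gave 0.87 ± 0.21 (edgeR adjusted p 0.0172), the only call among the 8 members between injury times, and 14 against 7 days gave -0.86 ± 0.21 (edgeR adjusted p 0.0502). From 3 to 7 days 6 of the 12 microglial markers were called higher too and 0 lower, beside 5.85% and 7.52% of all genes. At 7 days against sham 0 of the 12 were called higher and 0 lower, beside 4.61% and 4.67% of all genes. The part of these markers in the change of Anxa3 was not tested.

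The calls of Anxa3 depended on single libraries and on the method. Against sham at 7 days the call held in 12 of 21 alternatives and ended without sham replicate 4 (0.61, edgeR adjusted p 0.0713), 7-day replicate 1 (0.88, edgeR adjusted p 0.0558), 7-day replicate 3 (0.62, edgeR adjusted p 0.0994), 14-day replicate 1 (0.78, edgeR adjusted p 0.0553) or 14-day replicate 3 (0.78, edgeR adjusted p 0.0514). It also ended in the fit of the 2 groups alone (0.77, edgeR adjusted p 0.161) and with limma (limma adjusted p 0.0741 and 0.0750). Without both sham replicate 4 and 3-day replicate 3 it ended too (0.62, edgeR adjusted p 0.0661). The call against 3 days held in 16 of 21 and ended without 3-day replicate 2 (0.77), 3-day replicate 3 (0.78) or 7-day replicate 3 (0.72), with edgeR adjusted p of 0.0711, 0.1 and 0.0710. It also ended with limma (limma adjusted p 0.0554 and 0.0586). The lower level at 14 than at 7 days passed in 7 of 21 alternatives. With all 12 libraries it passed in DESeq2 (-0.83, DESeq2 adjusted p 0.0139) and with no filter on low counts (-0.86, edgeR adjusted p 0.00025). The replicate number as a block (-0.98, edgeR adjusted p 0.0131) and the 2 groups alone (-0.83, edgeR adjusted p 0.00653) passed too. It also passed without sham replicate 2 (-0.87, edgeR adjusted p 0.0255) or sham replicate 4 (-0.87, edgeR adjusted p 0.00556). Without both sham replicate 4 and 3-day replicate 3 it was -0.86 (edgeR adjusted p 0.00568). Gm42603, which overlaps an exon of Anxa3, was at 165, 142 and 308 CPM in sham, 112, 99.4 and 81.7 at 3 days, 138, 218 and 159 at 7 days and 161, 146 and 161 at 14 days. It fell at 3 days (-1.07 ± 0.26, edgeR adjusted p 0.0100) and rose from 3 to 7 days (0.82 ± 0.26, edgeR adjusted p 0.0472). The first call ended without 3-day replicate 3 (-0.97, edgeR adjusted p 0.0523) and was -0.68 without sham replicate 4, and the second ended without any 1 of the 9 injury libraries (edgeR adjusted p 0.0618 to 0.193). With the replicate block the first ended too (-0.87, edgeR adjusted p 0.0521), as it did without both sham replicate 4 and 3-day replicate 3 (-0.54, edgeR adjusted p 0.0969). The sources used here do not say how reads in the shared exon were assigned.

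S100a6, which encodes calcyclin, and S100a4, which encodes a binder of non-muscle myosin, were near the limit of detection. S100a6 was at 1.51, 0.69 and 0.56 CPM in sham, 1.82, 2.12 and 1.73 at 3 days, 1.05, 2.82 and 1.87 at 7 days and 1.36, 1.17 and 2.67 at 14 days, from 2 to 18 counts per library. Its 3-day libraries lay above the sham libraries, and none of its comparisons passed (0.94 ± 0.58 at 3 days, 0.97 ± 0.59 at 7 days and 0.80 ± 0.60 at 14 days, with edgeR adjusted p of 0.276, 0.310 and 0.424). S100a4 had 1, 1 and 0 counts in sham, 4, 5 and 8 at 3 days, 0, 4 and 5 at 7 days and 1, 1 and 1 at 14 days. That is 2, 17, 9 and 3 counts per group. The 0 in sham replicate 4 allows a level of up to 0.840 CPM and the 0 in 7-day replicate 1 up to 0.628 CPM (3 counts of the total, counting error only). The 3-day levels of 0.759 to 0.911 CPM span the former limit, so a difference from that library was not detectable at this depth. Since an exon of S100a4 is shared with Gm42674 and the treatment of such reads is unknown, these counts and limits hold only for the reads that were assigned to S100a4. Tested without a filter on low counts, S100a4 gave 2.42 ± 1.27 at 3 days (edgeR adjusted p 0.240).

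**Figure D4:**
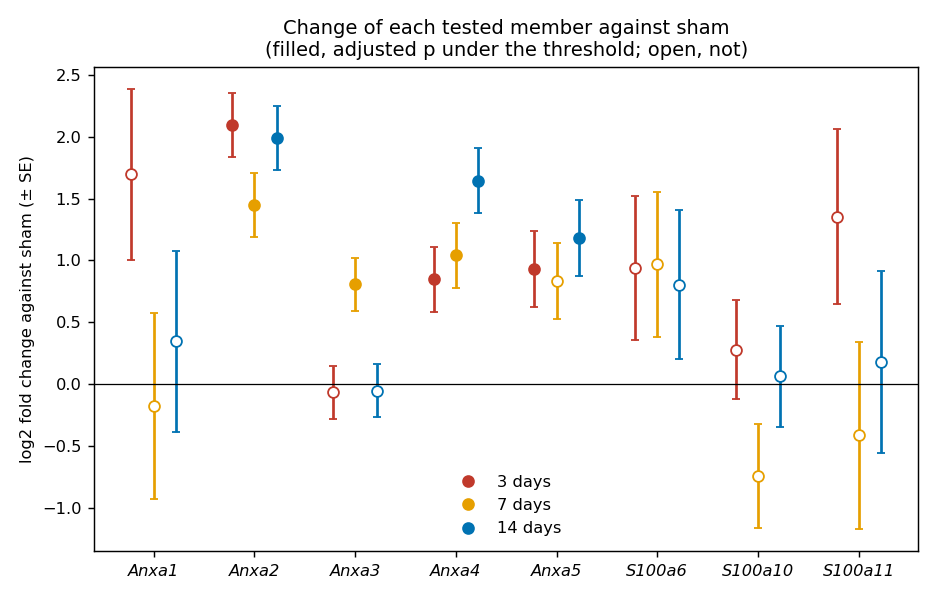
Log2 fold change against sham of the 8 tested members at 3, 7 and 14 days, with its SE as the whisker. Filled points passed the threshold in edgeR's test and open points did not: Anxa2 and Anxa4 are filled at all 3 times, Anxa5 at 3 and 14 days and Anxa3 at 7 days.

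Counted together, 3 of the 8 tested members were called higher at 3 days (Anxa2, Anxa4, Anxa5), where 10.9% of all 18451 tested genes were. At 7 days 3 were called higher (Anxa2, Anxa3, Anxa4) against 4.61% of all genes, and at 14 days 3 (Anxa2, Anxa4, Anxa5) against 5.02%. None of the 8 was called lower by edgeR in these comparisons, where 9.17%, 4.67% and 4.79% of genes were. No member was lower at an unadjusted p under 0.05, and DESeq2 and limma called 0 lower as well. The median log2 fold change of the 8 members was 0.93, 0.82 and 0.57 at the 3 times, and that of all tested genes -0.03, 0.01 and -0.05. All called members were annexins, and none of the 3 tested S100 members passed against sham. The 3 comparisons share the sham libraries, and without sham replicate 4 the counts of members called higher were 4, 2 and 3.

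Between injury times there was 1 call among the members. From 3 to 7 days Anxa3 was higher, where 5.85% of all genes were, and edgeR called 0 lower, where 7.52% of all genes were; 4 members were lower at an unadjusted p under 0.05, DESeq2 called 2 and limma 2 with a pseudocount of 1 and 0 with 0.1. From 3 to 14 days edgeR called 0 higher and 0 lower against 2.17% and 5.14% of all genes, with 1 member higher and 0 lower at an unadjusted p under 0.05. DESeq2 called 1 higher there and limma 0. From 7 to 14 days edgeR called 0 and 0 against 1.35% and 0.835%, with 2 higher and 1 lower at an unadjusted p under 0.05, and DESeq2 called 1 lower and limma 0. In the test of any difference between the 4 groups 4 of the 8 passed, against 26.4% of all genes: Anxa2 (edgeR adjusted p 0.00033), Anxa4 (0.00343), Anxa3 (0.012) and Anxa5 (0.0458).

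Of the 7 other annexin genes, 4 could be tested, and Anxa9 alone passed. Of all tested genes, 10.9%, 4.61% and 5.02% were called higher than sham at 3, 7 and 14 days, and 9.17%, 4.67% and 4.79% lower. Anxa9, an annexin that lacks the usual calcium sites, was at 7.11, 13.9 and 11.8 CPM in sham and 25.3, 20.6 and 18.7 at 3 days, which gave 0.99 ± 0.28 on the log2 scale with an edgeR adjusted p of 0.0235. That call ended without sham replicate 2 (0.71, edgeR adjusted p 0.0789), 3-day replicate 1 (0.83, edgeR adjusted p 0.0923) or 3-day replicate 2 (1.00, edgeR adjusted p 0.0637). It also ended with the replicate block (0.91, edgeR adjusted p 0.0622) and in the fit of the 2 groups alone (0.96, edgeR adjusted p 0.0950). Anxa6, Anxa7 and Anxa11 had log2 fold changes against sham between -0.52 and 0.44 at the 3 times. None of the 4 was called lower against sham by edgeR, with 1 lower at an unadjusted p under 0.05 at 7 days, and DESeq2 and limma also called 0. Of the 12 other S100 genes, 6 could be tested (S100a1, S100a9, S100a13, S100a16, S100b and S100g). EdgeR, DESeq2 and limma called 0 of them against sham, beside the same edgeR shares of all genes. At 14 days 2 were higher at an unadjusted p under 0.05. The difference of either list from the members was not tested. S100b, known from astrocytes, was at 45.7 ± 14.1 CPM (SD, n = 3) in sham, and its means after injury were 37.8 to 48.7 CPM. S100a8, the neutrophil partner of S100a9, had 0 to 19 counts and S100a9 0 to 22 counts per library.

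The genes that annexin and S100 proteins act with or through were described from a list of 24, of which 18 could be tested. They are receptors, calpains, the giant scaffold proteins of the Ahnak family, ferlins, caveolin and the plasminogen system. In this list 8 genes were called higher at 3 days, 4 at 7 days and 6 at 14 days, beside 10.9%, 4.61% and 5.02% of all genes, with median log2 fold changes of 0.84, 0.10 and 0.92. EdgeR called 0 lower at each time, with 2, 4 and 2 lower at an unadjusted p under 0.05, and DESeq2 and limma called 0. Without sham replicate 4 the counts called higher were 11, 5 and 9, and those called lower 1, 0 and 2. The formyl peptide receptor genes Fpr1, Fpr2 and Fpr3 and the plasminogen gene Plg were below the filter. From 3 to 7 days 2 genes of the list were called higher and 6 lower, beside 5.85% and 7.52% of all genes. From 7 to 14 days 4 were called higher and 1 lower, beside 1.35% and 0.835%; the latter was Ager, the receptor for advanced glycation end products and S100 proteins, named after its values were seen (-1.81 ± 0.37, edgeR adjusted p 0.0237), a call that ended without any 7-day or 14-day replicate (edgeR adjusted p 0.0598 to 0.125).

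The plasminogen activator urokinase and its receptor rose at all times. Plau, which encodes urokinase, was at 17.4, 19.7 and 16.5 CPM in sham, 45.3, 68.3 and 56.8 at 3 days, 51.3, 51.6 and 68.5 at 7 days and 94.9, 90.5 and 93.1 at 14 days. Its log2 fold changes were 1.67 ± 0.20, 1.68 ± 0.20 and 2.38 ± 0.21 (edgeR adjusted p 7.93e-05, 0.000259 and 1.3e-05). Plaur, which encodes its receptor, was at 4.24, 5.26 and 6.72 CPM in sham and at 17.0 to 44.3 CPM in the injury libraries, with 2.41 ± 0.30, 2.12 ± 0.30 and 2.87 ± 0.31 (edgeR adjusted p 0.00011, 0.000969 and 5.54e-05). No injury library of either gene fell into its sham range, and the calls held in all 21 alternatives.

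The membrane scaffold and repair genes were less uniform over time. Ahnak encodes a scaffold of the complex of annexin A2 and S100A10. It was at 78.7, 70.6 and 116 CPM in sham, 281, 476 and 670 at 3 days, 58.7, 133 and 135 at 7 days and 353, 273 and 290 at 14 days. It rose at 3 days by 2.43 ± 0.34 and at 14 days by 1.79 ± 0.33 on the log2 scale, and was at 0.31 ± 0.32 at 7 days, with edgeR adjusted p of 0.000228, 0.00383 and 0.575. Its highest library was 3-day replicate 3, without which the value at 3 days was 2.08 (edgeR adjusted p 0.00157). Ahnak2, its relative, rose at 7 days (1.75 ± 0.31, edgeR adjusted p 0.00449) and 14 days (2.12 ± 0.32, edgeR adjusted p 0.000929), with 0.77 ± 0.31 at 3 days (edgeR adjusted p 0.0922, and 1.26 with 0.00238 without sham replicate 4). Myof, which encodes the ferlin myoferlin, rose by 2.06 ± 0.40, 1.68 ± 0.40 and 2.28 ± 0.40 on the log2 scale at the 3 times (edgeR adjusted p 0.00272, 0.0187 and 0.00301). Without 7-day replicate 3 its call at 7 days was lost (1.4, edgeR adjusted p 0.0605), as it was without 7-day replicate 4 (1.54 and 0.0614).

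Further calls at 3 days were Dysf, Cav1 and Capn1, named after their values were seen, with log2 fold changes of 2.65 ± 0.64, 1.99 ± 0.48 and 1.66 ± 0.34 (edgeR adjusted p 0.00997, 0.0104 and 0.0036). They encode the repair ferlin dysferlin, caveolin-1 and a calcium-activated protease. The call of Dysf ended without 3-day replicate 3 (2.06, edgeR adjusted p 0.0734). Cav1, which is strong in endothelium, also rose at 14 days (1.99 ± 0.48, edgeR adjusted p 0.0182), a call that ended without 14-day replicate 1 or 3 (1.98 and 1.96, edgeR adjusted p 0.0612 and 0.0641). The fit of the 2 groups alone ended it as well (2.00, edgeR adjusted p 0.0622). Dysf and Cav1 were lower at 7 than at 3 days (-4.57 ± 0.73 and -3.15 ± 0.51, edgeR adjusted p 0.00243 and 0.00248). Dysf had 0, 1 and 8 counts at 7 days, and its value ran from -6.66 to -1.13 over the alternatives. All 12 endothelial markers were called lower in the same comparison, where 7.52% of all genes were. Their sums were 54 to 69 CPM at 7 days and 284 to 727 at 3 days. The part of these markers in the change of Cav1, Dysf and Ahnak was not tested.

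**Figure D5:**
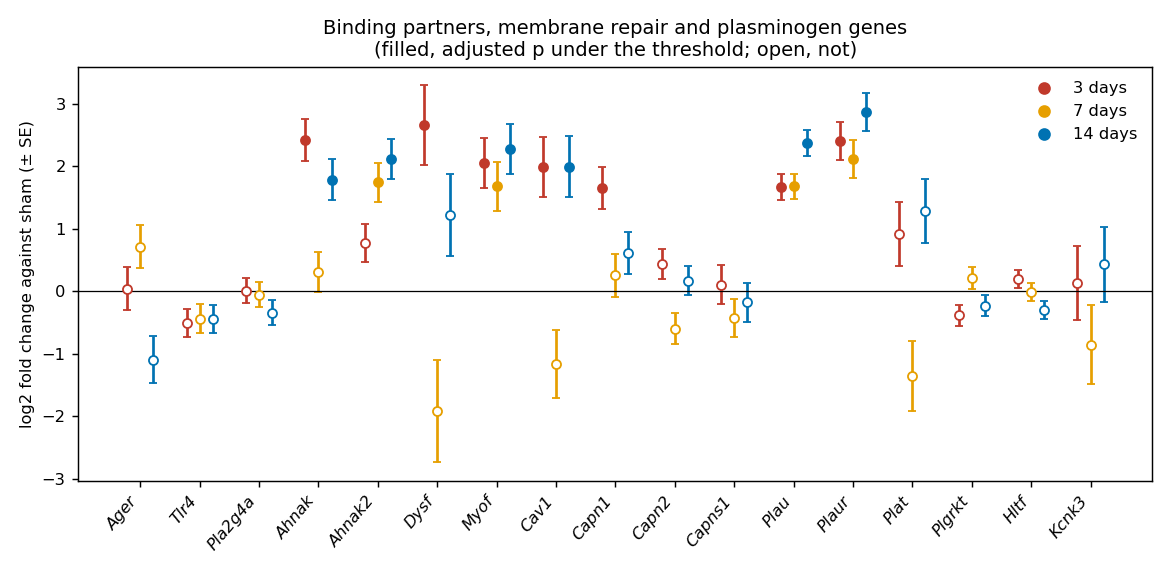
Log2 fold change against sham of tested genes of the list of binding partners, membrane repair and plasminogen genes at 3, 7 and 14 days, with its SE as the whisker and filled points for an edgeR adjusted p under 0.05. Plau and Plaur are filled at all 3 times, between 1.67 and 2.87, while Ahnak is filled at 3 and 14 days and at 0.31 at 7 days.

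The genes most like each member over the 12 libraries were taken from 9296 genes with a mean of at least 10 CPM. For Anxa2 they were Plekhh2 and Fam46c, each with a Pearson r of log2 CPM of 0.97. For Anxa3 they were Wdr11 (0.95) and Gar1 (0.91), for Anxa4 Patl1 (0.94) and Atp6v1a (0.92), a subunit of the proton pump of lysosomes, and for Anxa5 Arl4c (0.92). For Anxa1 they were Eri2 and Ms4a6d (both 0.92), and for S100a11 Ccng1 (0.93) and Atp7a (0.91). For S100a6 they were Wdfy1 (0.89) and Utp15 (0.88), and for S100a10 Trerf1 (0.89) and Atp13a4 (0.87). These were the highest of many correlations over 12 libraries in 4 groups, and they describe these libraries.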

How the data were processed

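Nuclear RNA of GFP-captured nuclei was amplified with a single-primer isothermal kit and sequenced in 12 libraries, per the labels' protocols. The authors deposited, for each Ensembl gene, a raw count and an RPKM. The submitters' processing notes name featureCounts 1.4.6-p3 and the genome builds mm10 and GRCm38. The sources used here do not give the aligner, the strand setting or the treatment of reads on overlapping genes. Recomputing each deposited RPKM from its count, 1 length per gene and the column total left a relative difference of at most 6.63e-15. The labels name polyA RNA, and the protocols name total RNA.

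Counts were scaled by TMM and filtered by edgeR's filterByExpr, which left 18451 of 49585 genes and 99.57% of the counts. They were fitted with edgeR's quasi-likelihood test (edgeR 4.0.16, R 4.3.3) over all 12 libraries and 4 groups, with p-values adjusted by Benjamini-Hochberg over the tested genes and a threshold of 0.05. The common biological coefficient of variation was 0.271. The results were recomputed with DESeq2 1.42.0, with median-ratio size factors in edgeR, with no filter, a filter of 1 CPM in 3 libraries with a mean of 5 CPM, the replicate number as a block, the 2 groups alone, limma 3.58.1 on log2(RPKM + 1) and log2(RPKM + 0.1), and each library left out in turn. One more, leaving out sham replicate 4 and 3-day replicate 3, was chosen after seeing the data, which makes 21 with it. The edgeR fit was tested on simulated counts with known changes at 3 days. Total counts of 4003480 to 10670804 per library limit the members with few counts to large changes.

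The members, the gene lists and the rules were chosen with earlier results of these data known. All members and any tested gene of the other annexin and S100 lists could be named. Of the partner list, up to 4 genes per comparison against sham with the smallest adjusted p were named. For likeness, the 2 genes with the highest r were named for each member. A few genes that these rules name are not reported here. Log2 CPM used a prior count of 2. Figures were drawn with matplotlib 3.10.9 in Python 3.11.15.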

Additional observations from a re-analysis of the deposited data

Results flagged for a closer look

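The change from sham differed between injury times, by the direct test of 1 time against another, in 13 results among the genes named here. In each the 3 libraries of one time did not overlap those of the other, and no share over all genes is given for that separation. Of all tested genes, 5.85% were called higher and 7.52% lower from 3 to 7 days. The shares were 2.17% and 5.14% from 3 to 14 days and 1.35% and 0.835% from 7 to 14 days. Dysf, Cav1, Capn1 and Ager were named after their values were seen, and Gm42603 was added after the overlaps were read. The 13 are therefore not a share of a list fixed beforehand. Anxa3 was higher at 7 than at 3 days by a log2 fold change of 0.87 with an edgeR adjusted p of 0.0172, a call that ended without 3-day replicate 2 or 3 or 7-day replicate 3 and with limma. Ahnak was lower at 7 than at 3 days (-2.12, edgeR adjusted p 0.00214), and this held in all 21 alternatives. Ahnak was higher at 14 than at 7 days (1.48, edgeR adjusted p 0.0317), and this ended without 7-day replicate 1 or 3 or any 14-day replicate (edgeR adjusted p 0.0774 to 0.139). Ahnak2 was higher at 7 than at 3 days (0.97, edgeR adjusted p 0.0448), and this ended without any 3-day or 14-day replicate or 7-day replicate 1 or 3 (edgeR adjusted p 0.0637 to 0.143). The replicate block (edgeR adjusted p 0.0588) and limma (limma adjusted p 0.0616 and 0.0833) ended it too. Ahnak2 was also higher at 14 than at 3 days (1.34, edgeR adjusted p 0.0149), and this ended without 3-day replicate 1 or 3 or 14-day replicate 1 or 2 (edgeR adjusted p 0.0511 to 0.0677). Plau was higher at 14 than at 3 days (0.71, edgeR adjusted p 0.0366), and this ended without 3-day replicate 1 or 3 or any 14-day replicate (edgeR adjusted p 0.0949 to 0.138). The replicate block ended it too (edgeR adjusted p 0.0527), as did leaving out both sham replicate 4 and 3-day replicate 3 (edgeR adjusted p 0.0584).

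Dysf was lower at 7 than at 3 days (-4.57, edgeR adjusted p 0.00243), which held wherever it could be tested. Dysf was higher at 14 than at 7 days (3.13, edgeR adjusted p 0.0452), and this ended without 3-day replicate 1 or 2, 7-day replicate 1 or 3 or any 14-day replicate (edgeR adjusted p 0.0512 to 0.174) and was 5.26 without 7-day replicate 4. Limma ended it too (0.55 and 2.17, limma adjusted p 0.187 and 0.0571). Cav1 was lower at 7 than at 3 days (-3.15, edgeR adjusted p 0.00248) in all 21 alternatives. Cav1 was higher at 14 than at 7 days (3.15, edgeR adjusted p 0.0133), and this ended without 7-day replicate 1 or 3 or 14-day replicate 1 (edgeR adjusted p 0.0607 to 0.0744). Capn1 was lower at 7 than at 3 days (-1.40, edgeR adjusted p 0.014), and this ended without 3-day replicate 3 or 7-day replicate 1 or 3 (edgeR adjusted p 0.0548 to 0.0691). Gm42603 was higher at 7 than at 3 days (0.82, edgeR adjusted p 0.0472), and this ended without any 1 of the 9 injury libraries. Median-ratio size factors, the stricter filter and the replicate block ended it too (edgeR adjusted p 0.0510, 0.0519 and 0.105), as did limma (limma adjusted p 0.0664 and 0.0709). Ager was lower at 14 than at 7 days (-1.81, edgeR adjusted p 0.0237), and this ended without any 7-day or 14-day replicate.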

How the results depend on the processing

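No member's called change reversed its sign under any alternative run. Of the 48 values of the 8 members, median-ratio size factors changed no call, and the stricter filter, which tested 4 of the members, changed none either. For members called higher at 3 days (3), limma with a pseudocount of 0.1 gave 1 and leaving out 1 library gave 1 to 4. At 7 days (3) the fit of the 2 groups alone gave 0, limma gave 1 with either pseudocount, and leaving out 1 library gave 1 to 3. From 3 to 7 days (1 higher) limma gave 0 with either pseudocount, and leaving out 1 library gave 0 to 1. For members called lower from 3 to 7 days (0), DESeq2, no filter, the 2 groups alone and limma with a pseudocount of 1 each gave 2, leaving out sham replicate 4 and 3-day replicate 3 gave 1, and leaving out 1 library gave 0 to 3. For members called higher from 3 to 14 days (0), DESeq2, no filter and the 2 groups alone each gave 1, and leaving out 1 library 0 to 1; for lower (0), the 2 groups alone gave 2. From 7 to 14 days (0 lower), DESeq2, no filter, the 2 groups alone and leaving out sham replicate 4 and 3-day replicate 3 each gave 1, and leaving out 1 library 0 to 1. For any difference (4), limma with a pseudocount of 0.1 gave 2. The causes were not tested.

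Labels share replicate numbers, but libraries with the same number did not deviate together: their 13 correlations ran from -0.30 to 0.07. With the replicate block, 1 member was called lower from 7 to 14 days in place of 0, Anxa5 lost its call at 3 days (0.87, edgeR adjusted p 0.0525) and gained one at 7 days (1.06, edgeR adjusted p 0.0417).

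Counts over all genes also varied. At 3 days 2003 genes were higher and 1692 lower, and 1061 and 756 in the fit of the 2 groups alone. At 7 days 851 and 861 became 115 and 57 in that fit and 1480 and 1585 without sham replicate 2. At 14 days 927 and 884 became 438 and 263 without 14-day replicate 3. From 3 to 7 days 1079 and 1387 became 196 and 368 without 3-day replicate 3 and 2285 and 2254 without sham replicate 4. From 3 to 14 days 401 and 948 became 2133 and 2753 with the 2 groups alone, and the former 79 without 3-day replicate 3. From 7 to 14 days 250 higher became 1 without 7-day replicate 1, and 154 lower became 0 without 14-day replicate 1.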
